A study of Macaca mulatta with 23 samples.

Results

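The methylation of cytosines in and around 8 genes of the serotonin system was examined in 23 rhesus monkeys (Macaca mulatta), in the central nucleus of the amygdala, a region that drives fear and anxiety responses. The genes were SLC6A4, HTR1A, HTR1B, HTR2A, HTR6, HTR7, TPH2 and FEV. Each gene was represented by a window of fixed hg19 coordinates, and every position of the deposited methylation table that fell inside a window was taken. The rule that picks the positions uses coordinates only and no measured value. The windows held 230 of the 444312 positions of the table. They were spread unevenly: HTR6 had 83 positions, HTR7 54, HTR1B 34, HTR1A 23, FEV 15, SLC6A4 12, TPH2 9 and HTR2A 0.

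Each monkey gave tissue from a single hemisphere, the left in 11 monkeys and the right in 12, and had a mean anxious temperament score, which enters as a continuous trait with age as a covariate. No treatment, genotype or control group is named in the labels. The score ran from -1.48 to 1.43 and age from 1.1 to 2.13 years, and each library is a separate animal. The assay was reduced representation bisulfite sequencing, in which the enzyme MspI cuts at CCGG sites and bisulfite conversion marks unmethylated cytosines. The level at a position is the percent of reads that were methylated there, with the read depth not given in the table. The tissue holds neurons and glia together, so a different mix of cells and a different level within 1 cell type cannot be told apart. The labelled tissue could not be checked against marker genes, because no expression was measured and no hg19 gene annotation was used here.

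Serotonin is made from tryptophan by neurons of the brainstem raphe nuclei, whose axons reach the amygdala densely. Tryptophan hydroxylase, encoded in neurons by TPH2, catalyses the rate-limiting step. FEV, also called PET1, is a transcription factor that sets the serotonergic identity of those neurons. The transporter encoded by SLC6A4 takes released serotonin back up and is the target of many antidepressants. The receptors HTR1A and HTR1B couple to inhibitory G proteins and also act as autoreceptors, HTR2A couples to Gq, and HTR6 and HTR7 raise cyclic AMP through Gs. TPH2, FEV and SLC6A4 are expressed mainly in the raphe cell bodies, which lie outside the amygdala, whereas the receptors are expressed by cells of the target areas.

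All 230 positions lay in 13 runs, a run being at least 3 positions with no gap above 200 bp between neighbours. The runs fell into a low class and a high class with nothing between. In 8 runs, with 174 positions, the mean level over monkeys was between 1.12% and 4.32%. In the other 5 runs, with 56 positions, it was between 54.3% and 71.7%. The low runs were those of FEV, HTR1A and HTR1B, the first and second of HTR6, and the second of HTR7, with runs numbered by hg19 coordinate. The high runs were both of SLC6A4, the single run of TPH2, the third of HTR6 and the first of HTR7. By position, 186 of the 230 (80.9%) had a mean under 20%, against 60.9% of all positions in the table. A further 31 (13.5%) were above 80%, against 21.1% of all, and 13 (5.65%) lay between, against 18.0% of all. The median position had a level of 2.22% in the windows and 4.37% in the table.

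**Figure D1:**
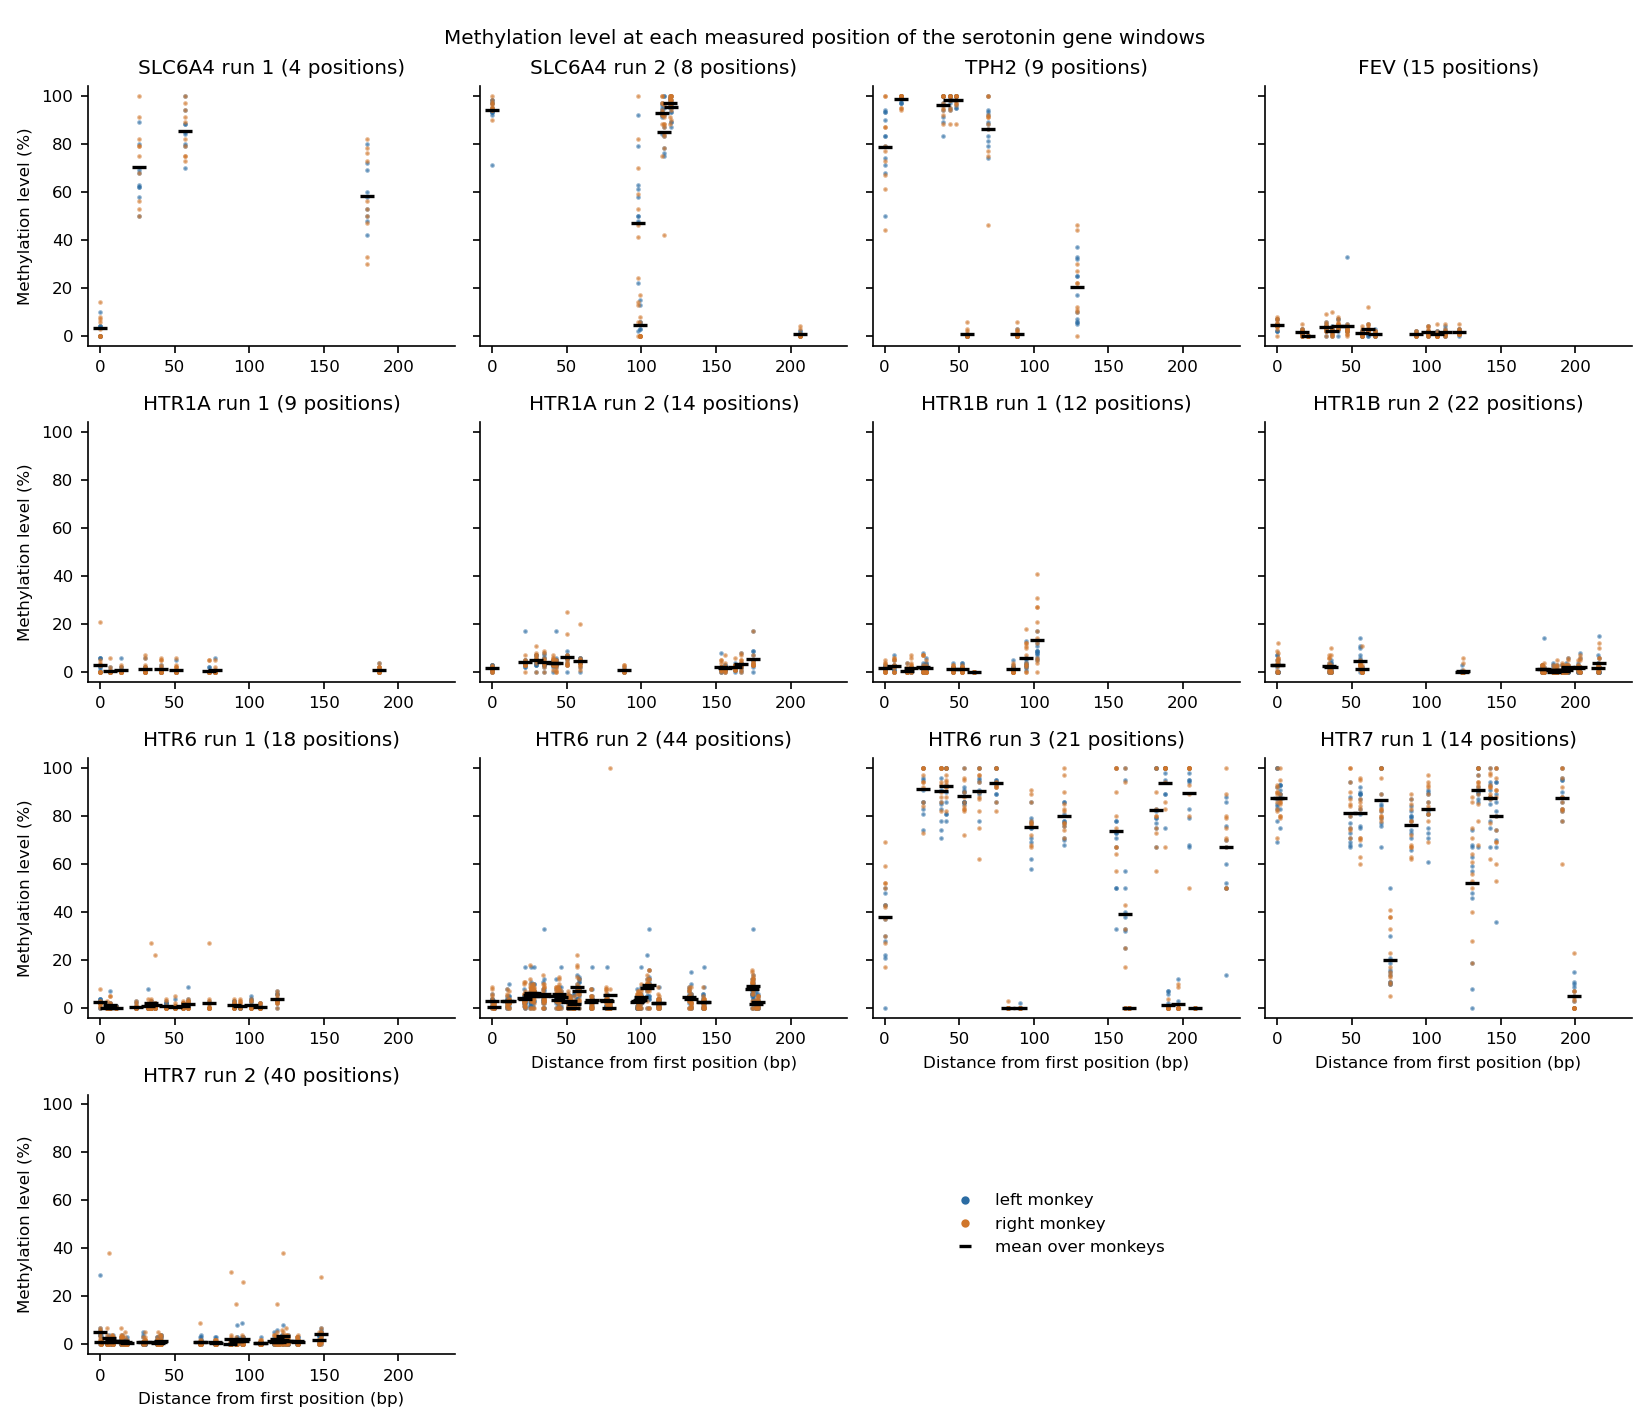
Methylation level (percent, vertical axis) of each position in the 13 runs, by distance from the first position of the run in base pairs (horizontal axis), with 1 point per monkey, hemispheres in separate colours, and a black bar for the mean over monkeys. The 8 low runs lie near the floor with run means of at most 4.32%, and the 5 high runs hold positions at both extremes.

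The transporter gene SLC6A4 was measured only away from its start. Its window, chr17:28518000-28566000, held a 4-position run at chr17:28534802-28534981 and an 8-position run at chr17:28544201-28544407. The gene is transcribed toward lower coordinates, and the closer run ended 21.6 kb from the window edge on the side of the gene's start, so no position nearer to that edge was measured. The first run averaged 54.3% ± 6.01 (SD, n = 19), from 45% in right 8 to 66% in right 3. The second averaged 63.2% ± 8.34 (SD, n = 23), from 45% in right 8 to 79.3% in left 3. Its 4 lowest monkeys, left 4, left 9, right 6 and right 8, had run means of 45% to 51.5% and had values at only 2 of the 8 positions. These were 28544201, where the 4 stood at 71% to 97%, and 28544299, where they stood at 0% to 22%. The other 19 monkeys, with 6 to 8 positions each, lay between 60.1% and 79.3% and averaged 66.4% ± 4.33 (SD, n = 19). Centring each position on its mean over monkeys left these 4 the lowest, at 39.0% to 45.5%, and the SD of the run rose from 8.34 to 10.5 points. Right 12 followed at 51.0%. With 2 positions present, 28544299 weighs more in left 4, left 9, right 6 and right 8 than in monkeys with all 8. The low level of these 4 monkeys therefore does not stand for the run as a whole. Within the run, position 28544299 spanned the whole scale, from 0% in right 8 to 100% in right 9, with a mean of 47.0% ± 28.4 (SD, n = 23).

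TPH2, the gene of the neuronal tryptophan hydroxylase, was represented by 9 positions at chr12:72362790-72362919. This run lay 33.8 kb inside the window from the side of the gene's start. It averaged 64.1% ± 2.15 (SD, n = 21), with the lowest value, 59.2%, in right 11 and the highest, 67.9%, in right 4. Both extremes were right monkeys, and the left monkeys lay between them. Its SD exceeded that of only 8.4% of the 15443 runs in the table with a mean between 20% and 80%. Those runs were not matched for missing positions or for positions near the ends of the scale. In TPH2 each monkey had all 9 positions or none, and 5 positions averaged above 80% and 2 under 20%. The mean hides 2 positions that were nearly unmethylated among others that were nearly full. Position 72362845 averaged 0.619%, and position 72362838, 7 bp away, averaged 98.2%. The widest spread in the run was at position 72362790, with 78.7% ± 15.1 (SD, n = 21) and a range of 44% to 100%.

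FEV, the regulator of the serotonergic program, was low at all 15 positions of its run at chr2:219846320-219846442. The run averaged 2.14% ± 0.729 (SD, n = 21), with values from 1.07% in left 3 to 4.12% in left 6. The upper end of that range came from position 219846367, which stood at 33% in left 6 and averaged 4.15% ± 6.91 (SD, n = 20) over all monkeys. Left 6 lacked values at some of the 15 positions, which gave this position more weight. Centred on each position, left 6 stood at 3.72%, still the highest, with right 7 at 3.27%.

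HTR1A was also low throughout. Its run at chr5:63255329-63255516 averaged 1.12% ± 0.752 (SD, n = 22; 0% to 2.44%), and its run at chr5:63256839-63257014 averaged 3.56% ± 0.783 (SD, n = 23; 2.43% to 5.14%). The second lay nearer the start of the gene, 3.99 kb from the window edge, against 5.48 kb for the first. The most variable HTR1A position, 63256889, averaged 6.43% ± 5.03 (SD, n = 23) and reached 25% in right 9.

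HTR1B resembled HTR1A in level. Its 12-position run at chr6:78172278-78172380 averaged 2.75% ± 1.34 (SD, n = 23), from 0.25% in right 9 to 5.58% in right 1. Its 22-position run at chr6:78172894-78173110 averaged 1.58% ± 0.758 (SD, n = 19), from 0% to 2.77%. Position 78172380, at the edge of the first run, was higher than the rest, with 13.3% ± 10.0 (SD, n = 23) and values from 0% to 41%. HTR2A, the Gq-coupled receptor, had no position in its window, chr13:47402000-47475000, and nothing is reported of it.

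HTR6 had the most positions, in 3 runs. The run at chr1:19991447-19991566, 3.45 kb from the window edge on the side of the gene's start, averaged 1.32% ± 0.860 (SD, n = 23). The run at chr1:19992314-19992492, with 44 positions, averaged 4.32% ± 1.57 (SD, n = 23). In both, 1 monkey stood above the rest: right 9 at 4.33% with the next monkey at 2.44%, and left 3 at 9.4% with the next at 6.29%. The run toward the other end of the gene, chr1:20005625-20005854, averaged 57.2% ± 5.97 (SD, n = 22), from 43% in right 9 to 71.3% in right 8. Right 9 had values at only 10 of the 21 positions and right 8 at 11. Centred on each position they stood at 54.7% and 60.6%, the range over monkeys was 51.2% to 63.5%, and the SD was 3.09 points. Position 20005786 in this run averaged 39.1% ± 34.5 (SD, n = 20), the largest SD of any position in the windows with values in 20 or more monkeys. It stood at 0% in 5 monkeys, between 17% and 57% in 11, and between 94% and 100% in 4.

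HTR7 showed both classes. The 40-position run at chr10:92617312-92617460, 3.54 kb from the window edge on the side of the gene's start, averaged 1.44% ± 1.11 (SD, n = 23). Right 9 was highest there at 5.83%, and the next monkey was at 2.52%. The 14-position run at chr10:92566081-92566280, 54.7 kb inside from that edge, averaged 71.7% ± 3.81 (SD, n = 23), from 65.4% in left 1 to 80.5% in right 7. Its SD exceeded that of 25.4% of runs of like level. Position 92566212 in this run averaged 52.2% ± 23.7 (SD, n = 23), with 0% in left 3 and 88% in right 11.

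**Figure D2:**
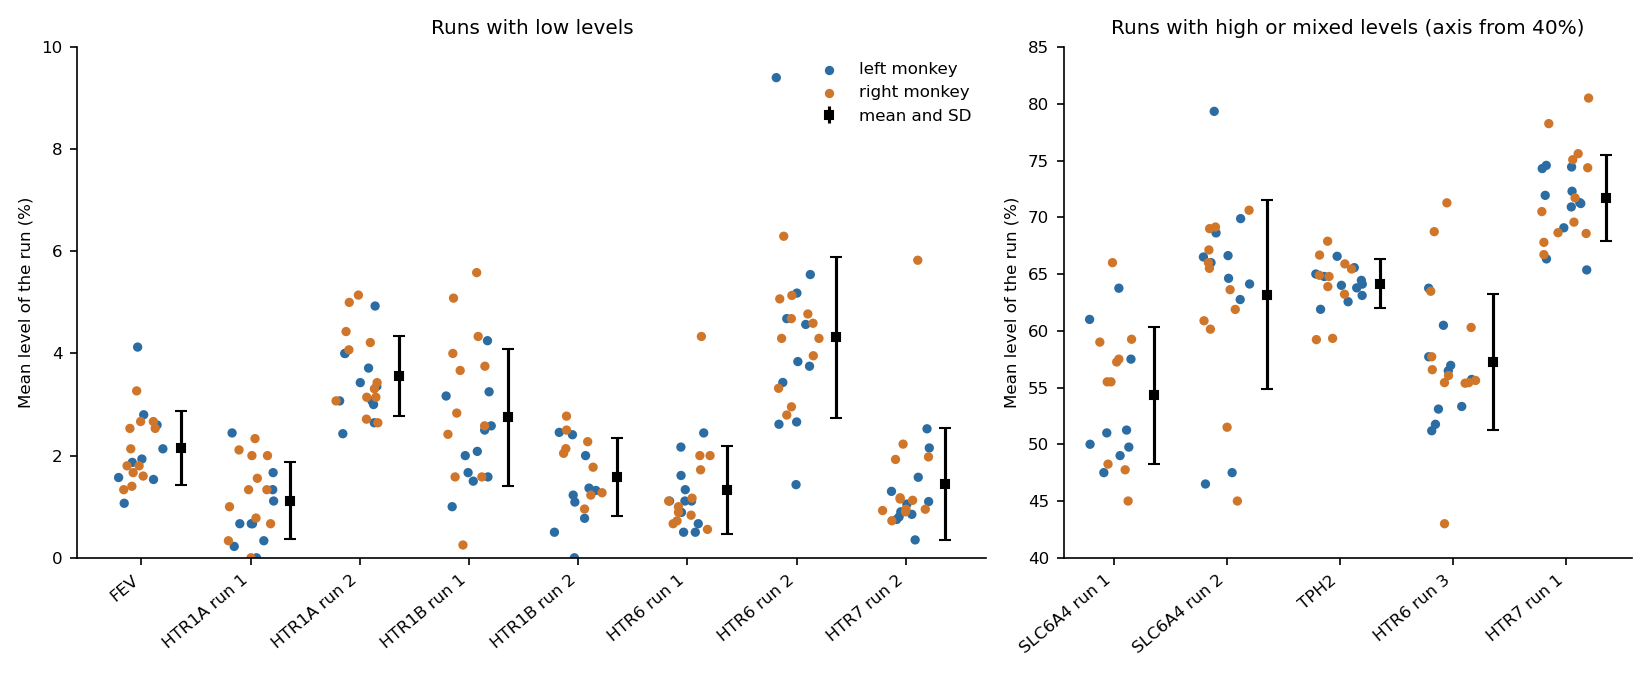
Mean methylation level (percent, vertical axis) of each monkey in each of the 13 runs (horizontal axis), left and right with left and right hemispheres in separate colours and black squares and bars for the mean and SD over all monkeys. The axis of the high runs starts at 40%. Left and right monkeys overlap in every run, and right 9 stands above the others in the second run of HTR7 at 5.83%.

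Averaged over its whole window, each gene took a level set by which runs the assay had reached. In ascending order the window means were 1.97% ± 0.792 (SD, n = 23) for HTR1B, 2.14% ± 0.729 (SD, n = 21) for FEV, 2.62% ± 0.614 (SD, n = 23) for HTR1A, 15.6% ± 3.00 (SD, n = 23) for HTR6, 19.7% ± 2.17 (SD, n = 23) for HTR7, 60.9% ± 7.38 (SD, n = 23) for SLC6A4 and 64.1% ± 2.15 (SD, n = 21) for TPH2. HTR1B and FEV did not differ beyond their spread, with FEV the higher in 7 of 21 monkeys. FEV and HTR1A differed by 0.528 ± 0.838 points (SD over 21 monkeys), with HTR1A the higher in 18 of 21. SLC6A4 and TPH2 differed by 3.40 ± 7.39 points (SD over 21 monkeys), with TPH2 the higher in 16 of 21. HTR6 exceeded HTR1A, and SLC6A4 exceeded HTR7, in 23 of 23 monkeys. HTR7 exceeded HTR6 in 21 of 23 monkeys. The order of the receptors turned with the positions counted: over positions complete in all monkeys HTR6 (2.94%) lay below HTR1A (3.76%), and by the median over positions HTR7 (1.28%) lay below HTR6 (2.91%). The complete positions of HTR6 could come only from its low runs, because left 3 had no value in the high run. The window mean of HTR6 was lowest, 5.67%, in left 3, which had no value in the high run of that gene.

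Unmethylated positions also lay inside the high runs. Of the 56 positions of the 5 high runs, 12 (21.4%) had a mean under 20%, against 15.9% of the 155991 positions in all runs of the table whose median position was above 50%. HTR6 had 6 of them, SLC6A4 3, TPH2 2 and HTR7 1. The HTR6 positions 20005789 and 20005833 were listed at 0 in every monkey with a value. HTR6 position 20005815 averaged 1.3%, and position 20005813, 2 bp away, averaged 93.8%. The reads came from macaque DNA and carry human coordinates, and a human cytosine that is a thymine in the macaque would be read as unmethylated. Whether these positions are cytosines in the macaque was not tested.

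In the low runs, values far above the rest came mostly from the same libraries. At 23 of the 174 positions, 1 monkey stood at least 10 points above the next. Right 9 was that monkey at 13 positions and left 3 at 6, while left 1, left 6, left 10 and right 1 were so at 1 each. At HTR6 position 19992393, right 9 stood at 100% and the next monkey at 8%. These libraries also had the most missing values: left 3 lacked 43.0% of the positions in the windows and 49.7% of those in the table, and right 9 lacked 18.7% and 21.2%.

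Pairs of positions 1 bp apart were taken as the cytosines of both strands of 1 CpG. Methylation of a CpG is normally alike on both strands, so such pairs offer a measure of the error of a single value. The windows held 56 such pairs: 22 in HTR6, 20 in HTR7, 11 in HTR1B and 3 in SLC6A4. The median absolute difference between the strands within a monkey had a median of 1.5 points over these pairs, against 2 points over all 116411 pairs in the table. Most pairs lay in low runs, where little difference is possible. The 3 pairs of SLC6A4 lay in a high run. Positions 28544320 and 28544321 averaged 97.1% and 95.4%, with a median difference of 3 points. Pairs in the low runs of HTR6 and HTR7 had median differences of up to 4 points. Positions 28544315 and 28544316 averaged 92.7% and 85%, with a median difference of 8 points. Positions 28544299 and 28544300 averaged 47.0% and 4.56%, with a median difference of 48 points and a largest difference of 100 points over 18 monkeys. The most variable SLC6A4 position was therefore not matched by its partner.

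**Figure D3:**
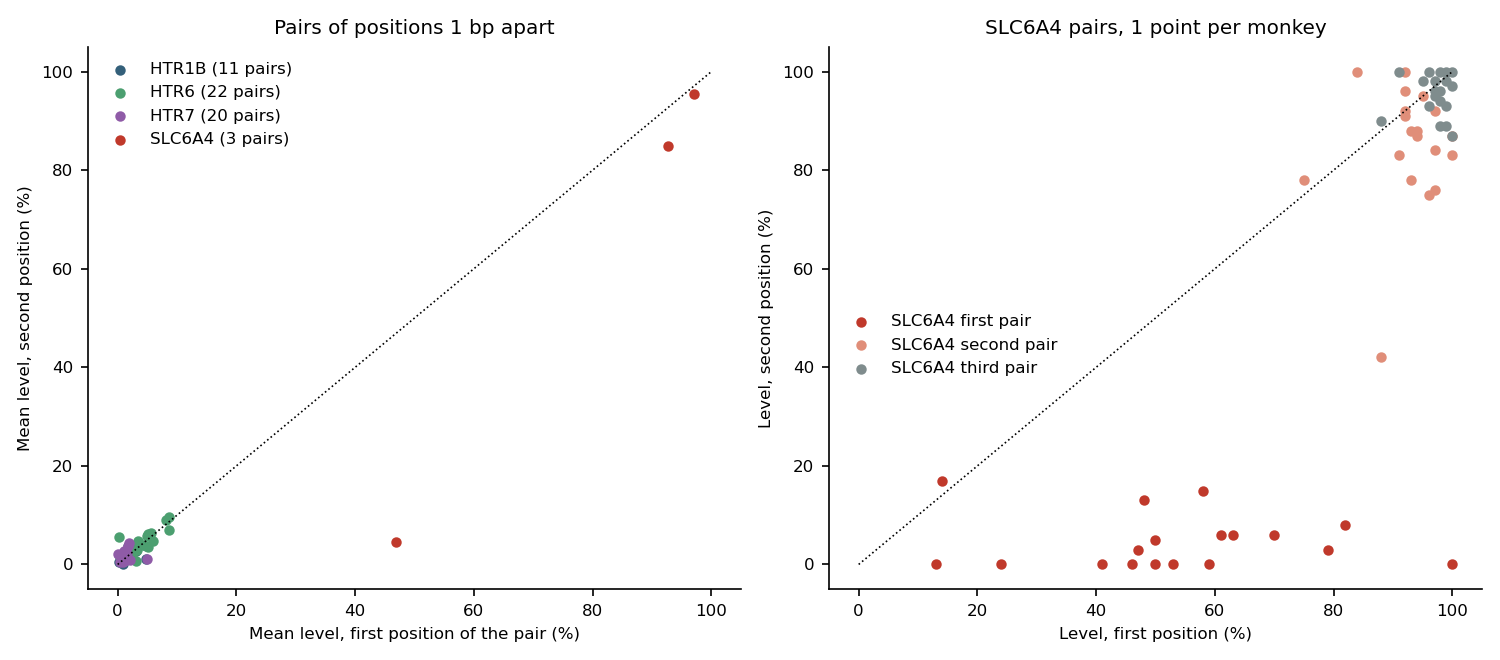
Levels (percent) at the positions of each adjacent pair, the first on the horizontal and the second on the vertical axis, with a dotted line of equality. The left panel shows the means of the 56 pairs and the right panel each monkey at the 3 SLC6A4 pairs, of which the first, with means of 47.0% and 4.56%, lies far from the line.

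The study asked whether methylation in this nucleus follows anxious temperament. Positions were tested where at least 20 monkeys had a value and the range over monkeys reached 10 points, which 85 of the 230 positions met (37%, against 43.2% of all positions). HTR6 supplied 43 of them, HTR7 22, HTR1A 7, TPH2 6, FEV 3, SLC6A4 2 and HTR1B 2. In the limma fit of level on score and age, 0 of the 85 positions passed an adjusted p of 0.05 for the score, and 0% of the 192151 positions tested in the table did. An unadjusted p under 0.05 was reached by 2 of the 85 (2.35%), below the 3.12% over the table. The slope on the score was positive at 50 positions and negative at 35. At 29 of the 85 positions the range fell under 10 points once a single monkey was left out, which was right 9 at 15 of them and left 3 at 6. These included all 8 tested positions of the second run of HTR7, all 3 of FEV and all 3 of the first run of HTR6. Of the 29, the slope was positive at 22 and negative at 7, and of the other 56 it was positive at 28 and negative at 28. The median size of the slope over the 85 was 1.09 points of methylation per unit of score, against 1.14 over all positions tested.

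Both of those positions lay in the high run of HTR6 and had slopes of opposite sign. Position 20005854 had levels from 14% in left 2 to 100% in right 1 and a slope of 11.87 ± 5.10 points per unit of score (SE, n = 20; unadjusted p = 0.0296, limma adjusted p = 1). Position 20005829 had levels from 50% in right 3 to 100% and a slope of -7.55 ± 3.46 (SE, n = 20; unadjusted p = 0.0402, limma adjusted p = 1). Position 19992447, in the second run of HTR6, followed with 2.02 ± 1.01 (SE; unadjusted p = 0.0574). At HTR6 position 19992419 the slope was 3.25 ± 1.93 (SE), and at its partner on the other strand, 19992418, it was 0.06 ± 1.42 (SE). Left 3 had a value, 33%, only at 19992419, where leaving out 1 monkey at a time gave slopes between 2.455 and 3.905. The slope at 19992419 thus had no counterpart of like size at 19992418.

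The run means were tested where 20 or more monkeys had one and these spanned 5 points or more, which 7 of the 13 runs met. The second run of HTR7 met this only through right 9, at 5.83% with the next monkey at 2.52%. The second run of HTR6 met it only through left 3, at 9.4% with the next at 6.29%. The first run of HTR1B fell short without right 9, at 0.25%, and also without right 1, at 5.58%. For the score, 0 of these 7 runs passed an adjusted p of 0.05, as did 0% of the 21253 runs tested, and 1 reached an unadjusted p under 0.05, against 3.2% of all runs. That was the first run of HTR7, with -2.14 ± 1.00 points per unit of score (SE, n = 23; unadjusted p = 0.0438, limma adjusted p = 1). Right 4, with the lowest score of -1.48, had a run level of 78.2%, and left 11, with the highest score of 1.43, had 71.3%. Of the 14 positions of the run, 11 had negative slopes, and means centred on each position gave -2.59 ± 1.22 (SE). The run mean averages these same 14 positions, so neither value is separate evidence for its slope. Leaving out 1 monkey at a time gave slopes between -2.47, without left 11, and -1.47, without right 4. Among the 12 monkeys whose identifiers start with r the slope was -3.71 ± 1.93 (SE), and among the 11 whose identifiers start with B it was -0.32 ± 1.18 (SE). With this identifier series as a covariate, or with no covariate, the run no longer reached an unadjusted p under 0.05. The same held on leaving out left 1, left 2, left 4, left 9, right 1, right 4, right 6, right 11 or right 12. The other 6 runs had slopes at most slightly above their errors: 0.505 ± 0.472 (SE) for the second run of HTR6, -0.436 ± 1.78 (SE) for the third run of HTR6, 0.03 ± 0.35 (SE) for the second run of HTR7, -0.774 ± 0.755 (SE) for TPH2, -1.11 ± 2.38 (SE) for the second run of SLC6A4 and 0.515 ± 0.394 (SE) for the first run of HTR1B. Leaving out 1 monkey at a time moved the slope of TPH2 between -1.10, without right 11, and -0.356, without right 4. That of SLC6A4 moved between -1.90, without left 4, and -0.06, without right 8. Within the r and B series the SLC6A4 slope was 0.459 ± 3.90 (SE, n = 12) and 0.803 ± 3.89 (SE, n = 11), both positive where the pooled slope was negative.

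**Figure D4:**
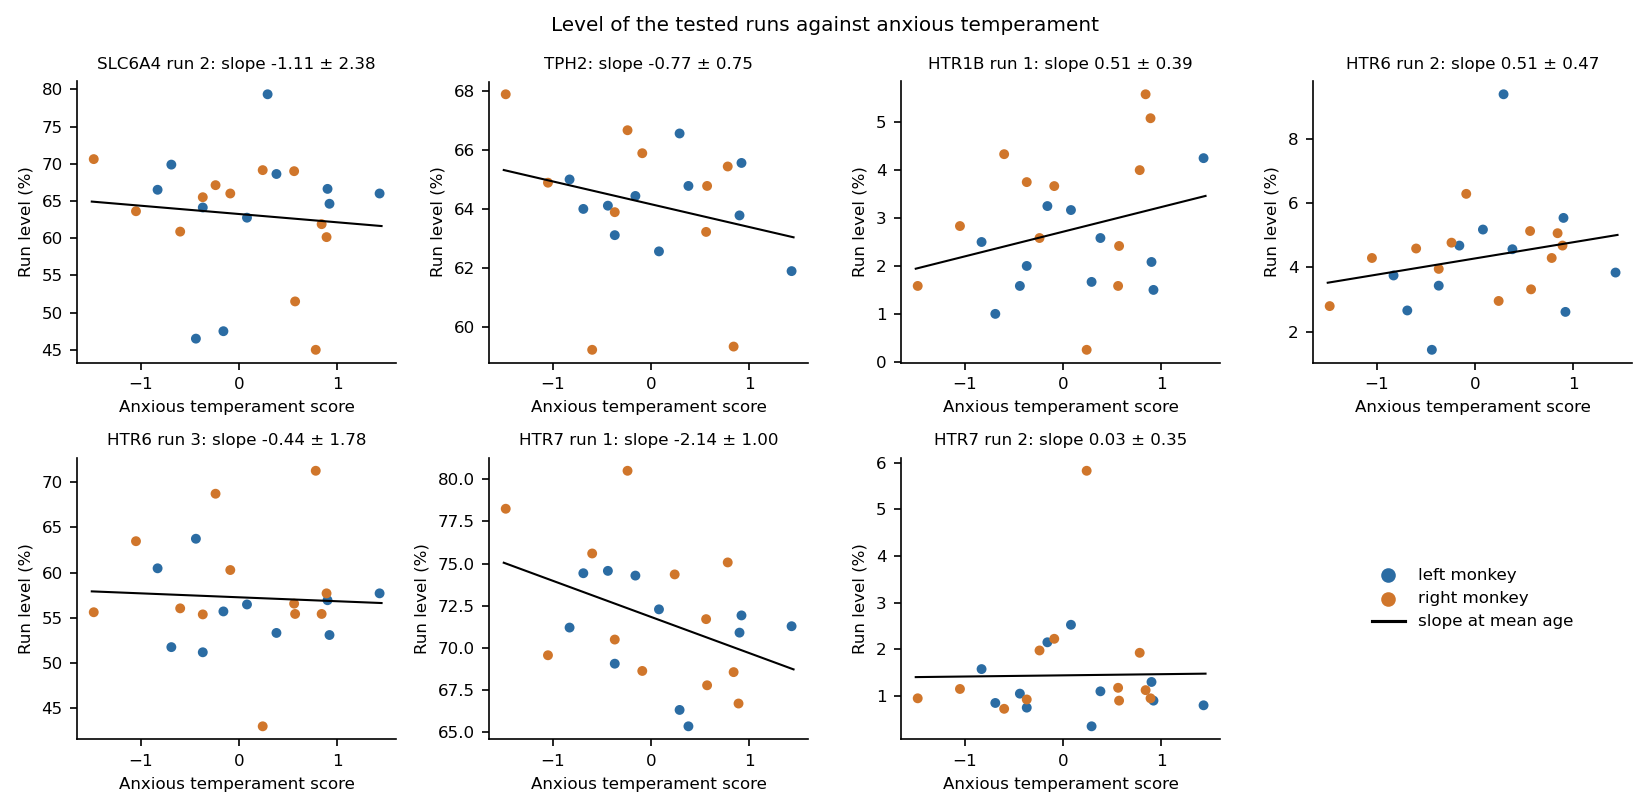
Run mean (percent, vertical axis) against the anxious temperament score (horizontal axis) for the 7 runs tested, 1 point per monkey, hemispheres in separate colours. The first run of HTR7 has the steepest slope relative to its error, -2.14 points per unit of score, and the others scatter around flat lines.

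**Figure D5:**
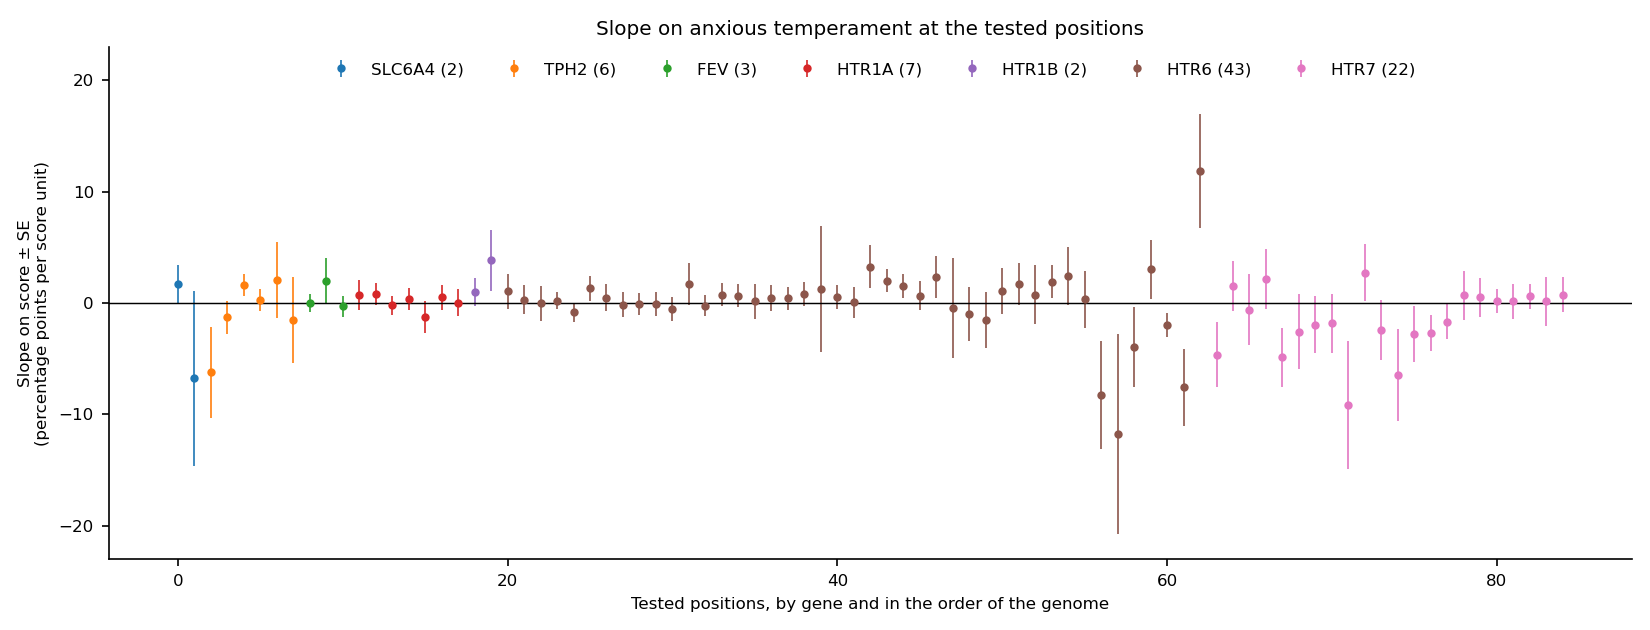
Slope on the score (points of methylation per unit of score, with standard errors) for the 85 tested positions, by gene. Slopes of both signs occur, with 50 positive and 35 negative, and the highest is 11.87, at HTR6 position 20005854.

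Age, the study's covariate, spanned about a year, with left 1 the oldest at 2.13 years. None of the 85 positions passed for age (0 called, smallest limma adjusted p = 0.987), where 0.0531% of the table did. An unadjusted p under 0.05 was reached by 4 (4.71%), against 4.06% over the table. All 4 had negative slopes, a direction in which 1.33% of the table reached it. Of these, 3 lay in the first run of HTR7. Position 92566212 had a slope of -51.94 ± 19.5 points per year (SE; unadjusted p = 0.0134), with left 1 at 8% and left 3, aged 1.25 years, at 0%. Leaving out 1 monkey at a time gave slopes between -57.9 and -47.16 at this position. Position 92566137 had -23.85 ± 9.19 (SE; unadjusted p = 0.016), and -36.38 without left 1. Position 92566228 had -29.81 ± 13.84 (SE; unadjusted p = 0.0411), with its lowest level, 36%, in left 1. Without left 1 that slope turned to 10.78, so its direction rested on the oldest monkey. The fourth was HTR1B position 78172373, with -9.27 ± 4.28 (SE; unadjusted p = 0.0401), and it was -18.82 without left 1. Of the 7 runs, 0 passed for age, against 0.0565% of all, and 0 reached an unadjusted p under 0.05, against 4.81% of all.

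Left and right amygdala were compared with the score and age in the model. None of the 85 positions passed (0 called, smallest limma adjusted p = 0.93), and 0% of the table did. An unadjusted p under 0.05 was reached by 3 (3.53%), against 3.48% over the table. All 3 were in the direction of higher levels in the right, in which 1.89% of the table reached it. HTR6 position 19992339 had 3.2% ± 2.10 (SD, n = 10; 0% to 6%) in the left and 7.5% ± 4.44 (SD, n = 12; 0% to 18%) in the right. The adjusted difference was 4.60 ± 1.58 points (SE; limma unadjusted p = 0.00796, adjusted p = 0.93), and the hemispheres overlapped. On the other strand of the same CpG, at 19992340, the left averaged 7.18% ± 4.33 (SD) and the right 5.83% ± 2.79 (SD), a difference of -1.39 ± 1.65 points (SE). The monkeys differed between the strands: left 3 had no value at 19992339 and the highest at 19992340, 17%. The higher level in the right at the first strand thus had no counterpart of like size at the second. HTR1B position 78172380 had 9.18% ± 3.28 (SD, n = 11; 5% to 17%) in the left and 17.1% ± 12.6 (SD, n = 12; 0% to 41%) in the right, a difference of 8.45 ± 3.67 points (SE; limma unadjusted p = 0.0303). The right spanned the whole left range. HTR7 position 92566130 ran from 67% to 94% in the left and from 71% to 100% in the right, a difference of 9.16 ± 4.25 points (SE, n = 21; limma unadjusted p = 0.0425). For the 7 runs, 0 passed, with 0% of all runs passing, and 0 reached an unadjusted p under 0.05, against 3.12% of all.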

How the data were processed

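Genomic DNA of the central nucleus of the amygdala was profiled by reduced representation bisulfite sequencing, with size-selected MspI fragments, per the labels' protocols. Bismark 0.11.1 and the human build hg19 are named in the submitters' processing notes. The authors deposited a table with the methylated fraction (0 to 1, with 2 decimals) per position and monkey. Neither coverage filters nor strand handling are stated in the sources used here. Without read counts the depth behind each value is unknown, and no interval or detection limit was computed.

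Fractions were multiplied by 100. Runs joined positions with gaps of at most 200 bp, and a run's level in a monkey was the mean of its values there. Tests used the linear model of limma 3.58.1 in R 4.3.3, with the variance prior following the mean level, score and age as terms and hemisphere added for its own test. They covered all positions with at least 20 monkeys and a range of 10 points, and all runs with at least 20 monkeys and a range of 5 points. Benjamini-Hochberg adjustment ran over the whole table, 2-sided, with calls at an adjusted p under 0.05. Missing values were left out. The model was solved for all positions at once. On 2000 positions its slopes and p-values matched those of limma's own functions, with a largest difference of 0 at 6 decimals. On simulated levels with slopes of 30 points per unit of score put in at 200 of 192151 positions, 200 were called, and 7 others. These 200 had a mean level between 20% and 80% and a limited spread, and the noise was normal. A slope of 30 points also exceeds the largest among the tested window positions, 11.87. The simulation therefore does not show the power at low positions or for smaller slopes. Files were handled in pandas 2.3.3 and in R through data.table, version 1.17.8, and plots were made in Python 3.11.15 with matplotlib 3.10.9.

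The 8 genes and the lists were chosen as a subject with earlier results of these data known, and the positions then follow from coordinates alone. Named were all windows, their runs, the 10 positions with the smallest p for the score, 5 each for age and hemisphere, and the most variable position of each window, of which those with most information are given in full. Other serotonin pathway genes were not analysed here, because that needs hg19 gene coordinates. Gene orientation is textbook background. Alternatives covered scale, variance prior, covariates, filters, run definition, strand merging and left-out monkeys. When monkeys were left out, the minimum number of monkeys fell with them.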

Additional observations from a re-analysis of the deposited data

How the results depend on the processing

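Called positions and runs remained 0 for score, age and hemisphere under each alternative run, 33 for positions and 34 for runs. The share called over the table was not recorded for the alternatives. In the main fit it was 0% for score and hemisphere, and for age 0.0531% of positions and 0.0565% of runs. Over the alternatives, the smallest adjusted p of any window position in limma was 0.991 for the score, 0.0563 for age and 0.877 for hemisphere. The value for age came without right 9 and left 3, at HTR1B position 78173073, which is measured in 19 monkeys and so was not tested in the full data. Left 1 stood at 14% there and the next monkey at 4%. Window positions at an unadjusted p under 0.05 for the score ranged from 0 of those complete in all monkeys to 10 without a range filter (5.15%, against 2.59% of all positions). Without right 9 and left 3 there were 5 (7.04%, against 4.6%). The count for age ranged from 2, without right 2 (2.35%, against 4.54%) or right 11 (2.41%, against 3.34%), to 7 without a range filter (3.61%, against 3.31%). For hemisphere it ranged from 1 (1.12% to 2.7%, against 3.37% to 3.89%) to 6 without a range filter (3.09%, against 3.12%). The window positions tested ranged from 37, complete in all monkeys, to 194 without a range filter.

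Window levels moved most with the positions counted. Over positions complete in all monkeys they were 46.96% for SLC6A4, 3.756% for HTR1A, 2.935% for HTR6 and 28.29% for HTR7. The SLC6A4 value is that of position 28544299 alone, the only complete position of that window. The HTR6 value leaves out the third run of that gene, in which left 3 had no value. These values therefore describe fewer positions, not the same windows measured again. With strands merged, HTR6 was 19.88% and HTR7 29.71%. With 3 kb removed at both ends, HTR1A was 3.563%. Medians over positions were 75.91% for SLC6A4, 0.9565% for HTR1B, 2.913% for HTR6, 1.283% for HTR7 and 88.05% for TPH2.

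Some slopes changed sign when 1 monkey was left out. The score slope of the second run of HTR7 ranged from -0.04075 to 0.1232 and was -0.01182 without left 2, -0.01282 without left 5, -0.04075 without right 4 and -0.03359 without right 11. That range does not include leaving out right 9, the highest monkey of the run at 5.83%. Without right 9 the run spanned less than 5 points and was not fitted. That of the third run of HTR6 ranged from -1.362 to 0.2553, the latter without right 2. The age slope of HTR7 position 92566228 ranged from -36.74 to 10.78, the latter without left 1. The cause was not tested. The coverage minimum was not run, since depth is unknown. No paired analysis was possible because the replicate numbers only name animals, and no monkey was sampled in both hemispheres.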
